A study of Mus musculus with 6 samples.

Results

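The insulin-like growth factor 1 (IGF1) axis was examined through 10 genes: Igf1, its receptor Igf1r, the acid-labile subunit Igfals, and the IGF binding proteins Igfbp1 to Igfbp7. Members were taken by gene symbol, and all 10 were found among the 21255 protein-coding genes of the deposited liver RNA-Seq table. The study asked how the liver transcriptome responds to added MAFG, a small MAF transcription factor that binds DNA as a homodimer or together with partners such as NRF1 and NRF2. Livers came from wild-type C57BL/6 mice aged 10 weeks on the diet labelled NCD, of which 3 had received adenovirus carrying Mafg cDNA (Ad-MAFG) and the other 3 an adenovirus without insert (Ad-CMV). Both adenoviruses carried a cytomegalovirus promoter, which is not restricted to hepatocytes, and every mouse received virus, so uninfected liver is not represented. Mafg itself was not analysed here and could not serve as a check of the group labels.

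IGF1 is a peptide hormone made mainly by hepatocytes under the control of growth hormone, and it acts on growth and metabolism through the receptor tyrosine kinase IGF1R. In blood most IGF1 travels in a complex with IGFBP3 or IGFBP5 and the acid-labile subunit, which prolongs its stay in the circulation. The other binding proteins form smaller complexes, compete with the receptor for ligand, and in part act on cells without IGF. Hepatic Igfbp1 is a known target of insulin and of the transcription factor FOXO1, and Igfbp2 is a further binding protein released by hepatocytes.

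Expression was given as FPKM (fragments per transcript length and sequencing depth), 1 value per group, computed by the authors over the mice of that group. The table has no values per mouse, so the levels and ratios below carry no SD or interval, the authors' own test columns were not used, and depth per library is unknown. A ratio is the log2 of the Ad-MAFG over the Ad-CMV FPKM, with 0.1 FPKM added to each, which understates the change of genes with low values. A gene was called higher or lower past a 2-fold ratio (1 on the log2 scale) and counted where its mean over both groups reached 1 FPKM. Each table row is an assembled transcript, and the row with the highest mean FPKM stood for its gene. Of 7168 protein-coding genes counted, 271 (3.78%) were called higher and 290 (4.05%) lower, with a median ratio of -0.05. Because the liver was sequenced in bulk, fewer cells of a type and less RNA per cell cannot be told apart.

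Igfbp2 was lower in Ad-MAFG livers, and it alone among the 10 genes passed the 2-fold limit as called here. Igfbp4 and Igfbp1 were also lower, by less than 2-fold, while Igfbp6, Igfbp5, Igfbp3 and Igfbp7 had higher values. Of 8 genes counted, 1 was called lower and none higher, against 4.05% called lower and 3.78% called higher among all protein-coding genes (7.83% in either direction). The 8 ratios were split evenly, 4 above and 4 below 0, with a median of -0.07. The binding proteins differed from each other in direction. The median moved with the choice of rows and filter: it was -0.46 over 6 genes on the annotated strand alone (all genes -0.12), -0.55 over 5 genes at a mean of at least 5 FPKM (all genes -0.14), and 0.23 over 9 genes with rows summed (all genes -0.04). Igf1r and Igfals had means below 1 FPKM and were not counted.

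**Figure D1:**
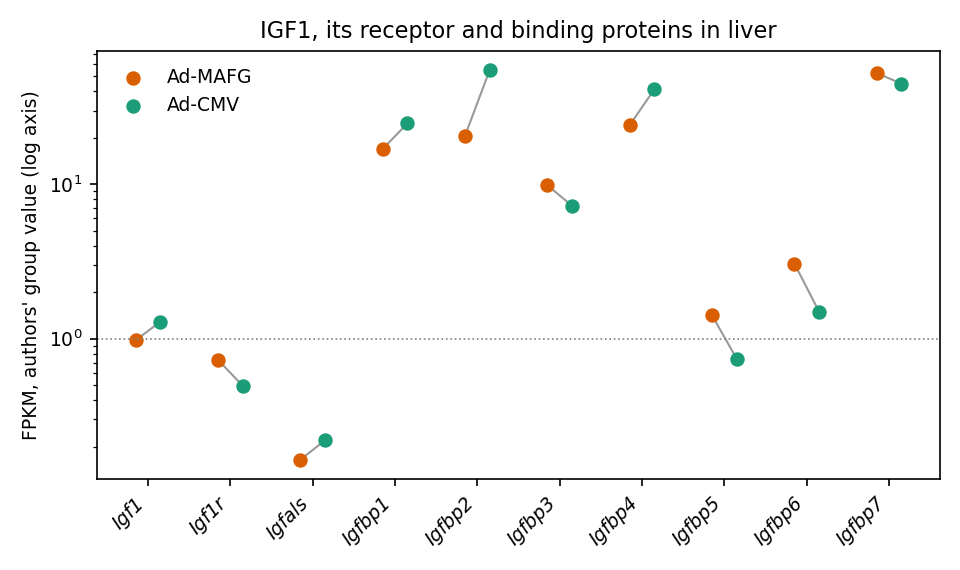
FPKM of the 10 genes on a log axis, 1 point per group (the authors' group value, no error available), with Ad-MAFG left of Ad-CMV and a dotted line at 1 FPKM. Igfbp2 has the steepest line, with 20.6 FPKM in Ad-MAFG and 54.8 FPKM in Ad-CMV, while Igfbp7 is the highest point in Ad-MAFG at 52.5 FPKM.

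Promoter sequence is shown for 4 binding proteins: Igfbp2, which had the largest ratio, Igfbp1 and Igfbp7, which hold the letters of a MAF recognition element, and Igfbp6, which had the largest ratio above 0. Each is the run of 250 bases before a RefSeq transcript start (GRCm38.p6), written 5′ to 3′ on the strand of the gene, and all 10 genes had an entry, with 13 starts in all. Capitals mark matches, on either strand, to TGCTGAC (from the MAF recognition element), TGACNNNGC (the antioxidant response element core), CAAAACA (from the insulin response sequence), TTCNNNGAA (the STAT5 motif) or TATAAA (the TATA box).
Igfbp2 (chr1:72824230-72824479, plus strand): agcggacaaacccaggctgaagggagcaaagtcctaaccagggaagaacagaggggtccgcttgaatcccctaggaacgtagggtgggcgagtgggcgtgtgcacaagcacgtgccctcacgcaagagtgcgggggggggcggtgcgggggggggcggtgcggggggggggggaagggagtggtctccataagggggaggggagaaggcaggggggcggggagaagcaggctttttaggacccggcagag
Igfbp1 (chr11:7197537-7197786, plus strand): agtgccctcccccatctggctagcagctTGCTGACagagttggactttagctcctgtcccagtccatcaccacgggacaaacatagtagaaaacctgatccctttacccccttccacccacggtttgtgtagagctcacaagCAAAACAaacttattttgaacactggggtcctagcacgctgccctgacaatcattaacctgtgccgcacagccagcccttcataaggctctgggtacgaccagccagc
Igfbp7 (chr5:77408046-77408295, minus strand): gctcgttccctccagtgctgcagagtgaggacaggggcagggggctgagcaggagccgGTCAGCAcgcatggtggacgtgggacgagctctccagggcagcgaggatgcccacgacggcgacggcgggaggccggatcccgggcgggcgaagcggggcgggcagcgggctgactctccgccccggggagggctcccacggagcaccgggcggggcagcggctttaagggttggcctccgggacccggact
Igfbp6 (chr15:102143936-102144185, plus strand): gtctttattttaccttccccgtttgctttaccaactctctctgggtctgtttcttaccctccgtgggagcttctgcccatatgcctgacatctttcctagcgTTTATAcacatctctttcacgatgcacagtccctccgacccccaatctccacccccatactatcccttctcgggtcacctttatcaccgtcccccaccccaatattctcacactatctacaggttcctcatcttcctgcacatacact

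Neither of the Igfbp2 windows held any of the 5 motifs, including the one printed, which is rich in G and C (67.2%, against a median of 52.4% over all windows). TGCTGAC was found once in Igfbp1, with its first letter 222 bases before the start, and once in reverse in Igfbp7, 192 bases before it. It occurred in 3.81% of all 32851 windows of this length, and in 2 of the 13 windows of these genes. The carriers differed in direction, with ratios of -0.55 for Igfbp1 and 0.23 for Igfbp7. TGACNNNGC was found in none of the 13 windows and in 10.2% of all windows. CAAAACA was found in Igfbp1 alone among the 10 genes (5.56% of all windows), 108 bases before the start. TTCNNNGAA was found in 2 of 3 Igfals windows (7.02% of all windows), and TATAAA in Igfbp4, 28 bases before its start, and in reverse in Igfbp6 (12.4% of all windows). A match describes letters in these windows, not a bound site.

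Igf1, the circulating ligand (chr10:87858265-87937042, plus strand), was listed at 0.975 FPKM in Ad-MAFG livers and 1.28 FPKM in Ad-CMV livers. Its ratio was -0.37, and 19.3% of the genes counted had a ratio as low or lower. This value rests on a single row for a gene with 8 annotated transcripts (GENCODE M21). The row is matched to a protein-coding transcript with 5 exons and a length of 1391 bases, and the numbering of its locus leaves room for 13 assembled transcripts. The other assembled forms of Igf1 were not analysed here, so the listed level is that of 1 form, not of the gene. The difference was small beside that of Igfbp2, and with no values per mouse it cannot be set against the spread between mice.

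Igfals, the acid-labile subunit that hepatocytes release (chr17:24865997-24882010, plus strand), had 0.164 FPKM in Ad-MAFG livers and 0.219 FPKM in Ad-CMV livers. The authors' tool marked this row as having too few alignments to test. A difference in Igfals was therefore not detectable here. Igf1r, the receptor (chr7:67952827-68233668, plus strand), was listed in 3 rows, the highest with 0.730 FPKM in Ad-MAFG livers and 0.496 FPKM in Ad-CMV livers. All 3 Igf1r rows were higher in Ad-MAFG, with ratios of 0.48, 0.44 and 0.71. The row on the strand of the gene had only 0.0905 FPKM in Ad-MAFG and 0.0167 FPKM in Ad-CMV. That row, like that of Igfals, was marked as having too few alignments.

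Igfbp2 (chr1:72824503-72852474, plus strand) had 20.6 FPKM in Ad-MAFG livers and 54.8 FPKM in Ad-CMV livers, so that 37.5% of the Ad-CMV level was left. The ratio was -1.41, and 142 of the 7168 genes counted (1.98%) had one as low or lower. This row lies on the strand of the gene and is matched to its protein-coding transcript of 4 exons and 1307 bases. Of 2 further Igfbp2 rows, both on the opposite strand, the higher had 10.2 FPKM in Ad-MAFG and 24.6 FPKM in Ad-CMV, and is matched to a retained-intron form. The lower of them had 1.73 FPKM in Ad-MAFG and 4.88 FPKM in Ad-CMV. All 3 rows were past 2-fold, with ratios of -1.41, -1.25 and -1.44. In the 5 alternative settings that could move its ratio, Igfbp2 stayed past 2-fold.

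Igfbp4 (chr11:99041244-99054392, plus strand), a binding protein whose cleavage by the protease PAPP-A frees IGF, had 24.1 FPKM in Ad-MAFG livers and 41.2 FPKM in Ad-CMV livers. Its ratio was -0.77, and 6.72% of the genes counted had one as low or lower. That row lies opposite to the gene, and the row on the strand of the gene, 1 of 8 assembled transcripts there, had 4.42 FPKM in Ad-MAFG and 7.16 FPKM in Ad-CMV. The ratio on the strand of the gene was -0.68, close to the other although the level was lower.

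Igfbp1 (chr11:7197782-7202546, plus strand), the insulin-regulated binding protein, had 16.9 FPKM in Ad-MAFG livers and 24.7 FPKM in Ad-CMV livers on its own strand. The opposite strand gave nearly the same pair, 15.3 FPKM in Ad-MAFG and 23.1 FPKM in Ad-CMV. The ratios were -0.55 and -0.59. A gene with a ratio this low or lower was not rare, at 11.4% of those counted.

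Igfbp3, the main carrier of IGF1 in blood (chr11:7206086-7213923, minus strand), had 9.85 FPKM in Ad-MAFG livers and 7.26 FPKM in Ad-CMV livers, on the strand opposite to the gene. On its own strand it had 1.81 FPKM in Ad-MAFG and 1.22 FPKM in Ad-CMV. The ratios of 0.43 and 0.53 share a direction, and 13.2% of the genes counted had a ratio of 0.43 or higher.

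Igfbp5, which like IGFBP3 can form the large complex with the acid-labile subunit (chr1:72857932-72874884, minus strand), had 1.41 FPKM in Ad-MAFG livers and 0.740 FPKM in Ad-CMV livers. The ratio was 0.85, and 5.01% of the genes counted had one as high or higher. This row is opposite to the gene, and the listed row on the strand of the gene, matched to a non-coding form, was close to 0 in each group. The value used for Igfbp5 in the counts and sums is that of the opposite row, which is matched to the protein-coding transcript.

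Igfbp6, which prefers IGF2 over IGF1 (chr15:102144362-102149511, plus strand), had 3.07 FPKM in Ad-MAFG livers and 1.49 FPKM in Ad-CMV livers. The FPKM ratio was 2.05 as listed, and 0.99 on the log2 scale with 0.1 FPKM added, which put it just short of the limit, and 3.85% of the genes counted had one as high or higher. A second row opposite to the gene had 1.03 FPKM in Ad-MAFG and 0.453 FPKM in Ad-CMV, with a ratio of 1.03. The row on the strand of the gene had 0.560 FPKM in Ad-MAFG and 0.135 FPKM in Ad-CMV, with a ratio of 1.49. Igfbp6 thus was on either side of 2-fold depending on the row, and it passed when rows were summed (1.12), when 0.01 FPKM was added in place of 0.1 (1.03), when ratios were centred on the median of all genes (1.04) and with upper quartile scaling (1.07).

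Igfbp7, which binds IGFs weakly and is known from vessels and matrix (chr5:77349240-77408041, minus strand), had 52.5 FPKM in Ad-MAFG livers and 44.8 FPKM in Ad-CMV livers. It was listed in 1 row, on its own strand, with a ratio of 0.23 that 22.6% of the genes counted reached or passed.

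**Figure D2:**
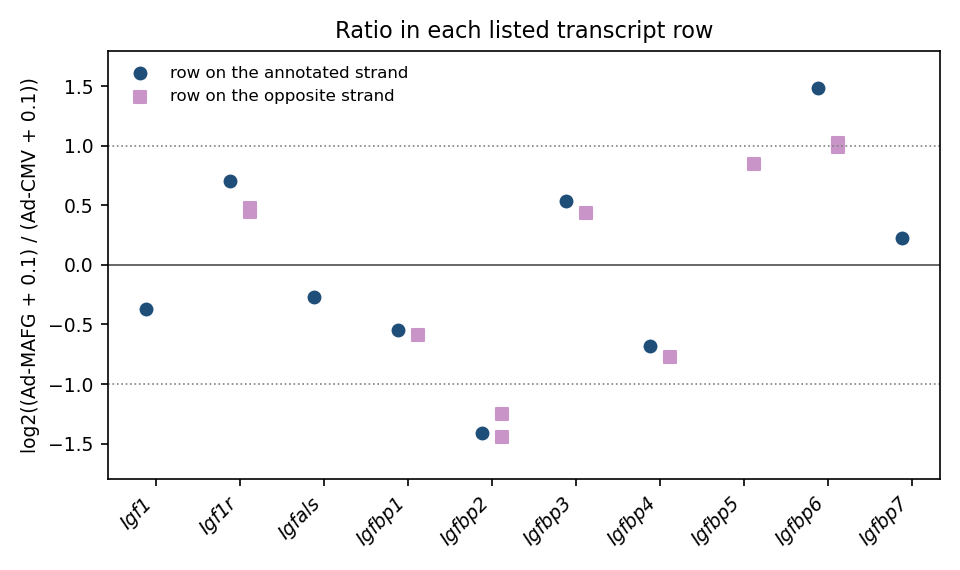
Log2 ratio of Ad-MAFG over Ad-CMV FPKM (0.1 added to each) for every listed row of the 10 genes with at least 0.05 FPKM in a group, as circles on the annotated strand and squares on the opposite strand; solid line at 0, dotted lines at 2-fold. In each of the 6 genes with several such rows, all rows lie on the same side of 0, from 3 rows between -1.44 and -1.25 for Igfbp2 to 3 rows between 0.99 and 1.49 for Igfbp6.

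The strand of a row follows from the numbering of loci, which runs along the plus and then the minus strand of each chromosome. Of 20 rows for these genes, 10 lie on the annotated strand and 10 opposite to it, and for 5 of the 10 genes the highest row is opposite. This is common in the table, where 67.9% of the 11872 rows with a mean of at least 1 FPKM and a gene of known strand are opposite to it. Rows of both strands thus carry one gene name, and the highest row was used whichever strand it lay on. With 2 groups the pattern of a gene is a single ratio, so no genes of like pattern were sought. Rows of a gene come from the same libraries and are not replicates, so their shared direction does not measure the spread between mice.

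Igfbp2 and Igfbp5 are neighbours on chromosome 1, with 5457 bases between their annotated ends, and Igfbp1 and Igfbp3 are neighbours on chromosome 11, with 3539 bases between theirs. In each pair the genes point towards each other, and in each the plus-strand gene had a ratio below 0 and the minus-strand gene one above 0. The ratios were -1.41 for Igfbp2 beside 0.85 for Igfbp5, and -0.55 for Igfbp1 beside 0.43 for Igfbp3. The highest rows of Igfbp5 and Igfbp3 lie on the plus strand, that of their neighbour, and differed from it in direction.

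FPKM is scaled to transcript length, so the listed levels of the binding proteins were set side by side, but each row is 1 assembled transcript. The numbering leaves room for 5 transcripts in the locus of the highest Igfbp2 row and 2 in that of Igfbp7. For the Igfbp4 row on its own strand it leaves room for 8. The orders, sums and shares below therefore describe listed forms, not whole genes. In Ad-MAFG livers the order was Igfbp7, Igfbp4, Igfbp2, Igfbp1, Igfbp3, Igfbp6 and Igfbp5, and in Ad-CMV livers Igfbp2 led, ahead of Igfbp7 and Igfbp4, with the other 4 in the same order. With rows summed the order was Igfbp7, Igfbp2, Igfbp1 and Igfbp4 in Ad-MAFG livers, and Igfbp2, Igfbp4, Igfbp1 and Igfbp7 in Ad-CMV livers, where Igfbp7 made up 18.9%. Which neighbours in these orders differ beyond the spread between mice cannot be said. Summed over the 7 genes, the level was 128 FPKM in Ad-MAFG livers and 175 FPKM in Ad-CMV livers, or 73.4% of the Ad-CMV sum. Igfbp2 made up 16.0% of the sum in Ad-MAFG and 31.3% in Ad-CMV, and Igfbp7 40.9% in Ad-MAFG and 25.6% in Ad-CMV. Igfbp1 made up 13.2% in Ad-MAFG and 14.1% in Ad-CMV. The sum differed by -46.6 FPKM, made of -59.1 FPKM in Igfbp1, Igfbp2 and Igfbp4 together and 12.5 FPKM in the other 4. Without Igfbp2 the sums were 108 FPKM in Ad-MAFG and 120 FPKM in Ad-CMV, or 89.7%. On rows of the annotated strand alone Igfbp2 made up 21.3% in Ad-MAFG and 41.2% in Ad-CMV, and Igfbp4 came after Igfbp1 in both groups, with 4.57% in Ad-MAFG and 5.39% in Ad-CMV.

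**Figure D3:**
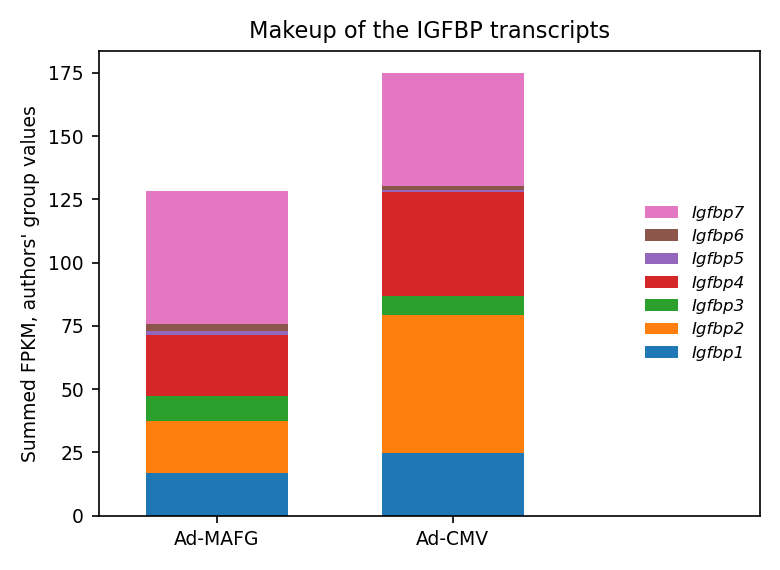
Stacked FPKM of the 7 IGF binding proteins (the authors' group values of the highest row per gene), Ad-MAFG left of Ad-CMV. The Ad-MAFG stack reaches 128 FPKM and the Ad-CMV stack 175 FPKM, and the Igfbp2 block shows the largest difference, 20.6 FPKM in Ad-MAFG and 54.8 FPKM in Ad-CMV.

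Genes that act before or after the binding proteins were followed in 7 lists of 48 genes in all, of which 47 were in the table and 20 were counted. Of these 20, 3 were called higher, 2 lower and 15 neither, with a median ratio of 0.15. Among all protein-coding genes counted, 3.78% were called higher and 4.05% lower, with a median of -0.05. For 17 of the 20 the highest row was opposite to the gene. The growth hormone receptor Ghr, the first step from growth hormone to Igf1, had 8.91 FPKM in Ad-MAFG livers and 21.0 FPKM in Ad-CMV livers, with a ratio of -1.22. Both other Ghr rows opposite to the gene were lower as well (-1.51 and -1.49), and its listed row on the annotated strand was close to 0 in each group. In that list of 10 genes, 9 were in the table and 2 counted, with a median of -0.70. The counted gene beside Ghr was Stat5b, a transcription factor that growth hormone activates, with a ratio of -0.17.

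Among FOXO1 and its targets, 4 of 6 genes were counted, with a median of -0.59. Pck1, the gluconeogenic enzyme that insulin represses, had 8.28 FPKM in Ad-MAFG livers and 23.8 FPKM in Ad-CMV livers, a ratio of -1.51, and it was the only call. The remaining counted genes, all on rows opposite to the gene, were G6pc (-0.97, just short of the limit), Foxo3 (-0.21) and Pdk4 (0.73). Foxo1 itself was below the count limit, with 0.190 FPKM in Ad-MAFG and 0.136 FPKM in Ad-CMV. Of 12 receptor substrates and PI3K-AKT genes, 8 were counted at a median of 0.15. There Grb10, an adaptor that dampens insulin and IGF1 receptor signals, was called higher, with 3.78 FPKM in Ad-MAFG and 1.71 FPKM in Ad-CMV. Its second row above 0 had a ratio of 0.57. Irs1, the classic substrate of both receptors, had 0.107 FPKM in Ad-MAFG and 0.105 FPKM in Ad-CMV and was not counted.

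Of 6 IGFBP proteases and their inhibitors, 2 were counted. Htra1, a serine protease known to cleave IGFBP5, was called higher, with 1.77 FPKM in Ad-MAFG livers and 0.767 FPKM in Ad-CMV livers (ratio 1.11). Pappa, the protease of IGFBP4, had 0.374 FPKM in Ad-MAFG and 0.0736 FPKM in Ad-CMV, too low to be counted. Of 8 IGFBP-related proteins, 3 were counted at a median of 0.78, and Wisp2, a CCN family protein, was called higher, with 1.79 FPKM in Ad-MAFG and 0.810 FPKM in Ad-CMV (ratio 1.05). Igfbpl1, an IGFBP-like protein, was listed at 0 in each group. For Grb10, Htra1, Pappa and Wisp2 these values came from rows opposite to the gene. On its own strand Wisp2 had 0.0947 FPKM in Ad-MAFG and 0.0858 FPKM in Ad-CMV, and Grb10 and Htra1 were close to 0 in each group.

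The ligand Igf2 was listed close to 0 in each group, and of its list of 4 genes only Igf2r, the receptor that clears IGF2, was counted, with 4.92 FPKM in Ad-MAFG livers and 2.95 FPKM in Ad-CMV livers (ratio 0.72). None of the 3 IGF2 mRNA-binding proteins was counted, and Igf2bp1 was listed at 0 in each group. Insr, the insulin receptor, was likewise listed close to 0, in a locus with room for 8 transcripts. Low listed values in such loci describe the listed form only.

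**Figure D4:**
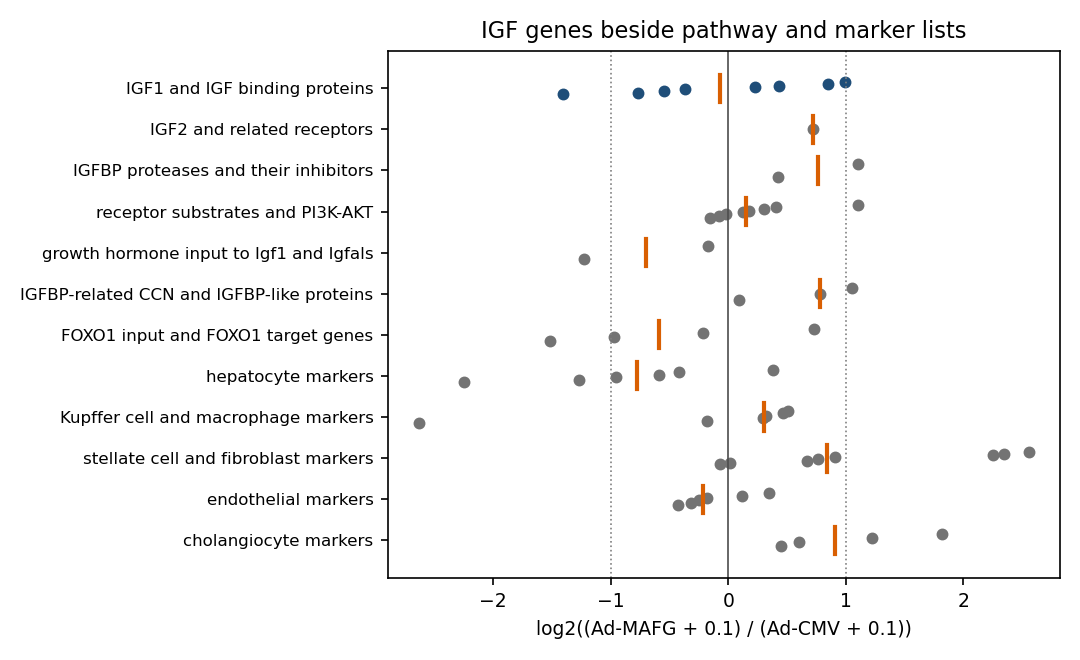
Log2 ratio of Ad-MAFG over Ad-CMV FPKM (0.1 added to each) for the counted genes of each list, 1 point per gene, with the list median as an orange bar, a solid line at 0 and dotted lines at 2-fold. The IGF genes in the top line run from -1.41 to 0.99, and the stellate cell and fibroblast list has 3 genes past 2-fold, up to 2.56.

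Liver was recognisable by Alb (serum albumin), at 5603 FPKM in Ad-MAFG and 4310 FPKM in Ad-CMV. Ttr, of the same list, was listed at only 0.230 FPKM in Ad-MAFG and 0.000307 FPKM in Ad-CMV and was not counted. Its locus has room for 2 transcripts, so this too describes the listed form only. The marker calls below stand beside 3.78% called higher and 4.05% called lower among all protein-coding genes counted. Of 6 counted hepatocyte markers 2 were called lower, with a median of -0.78 and a summed level of 6534 FPKM in Ad-MAFG and 7027 FPKM in Ad-CMV. Alb carried that sum and was the only counted marker of the list above 0. The other hepatocyte markers summed to 931 FPKM in Ad-MAFG and 2716 FPKM in Ad-CMV, with Cyp2e1, a drug-metabolising enzyme, at -2.25 and Apoa1, an apolipoprotein, at -1.27. Igfbp2, Igfbp4 and Igfbp1 had ratios of -1.41, -0.77 and -0.55. Of 8 counted stellate cell and fibroblast markers 3 were called higher, the collagen genes Col1a1 (13.4 FPKM in Ad-MAFG and 2.19 FPKM in Ad-CMV), Col1a2 and Col3a1. The sum of that list was 201 FPKM in Ad-MAFG and 98.3 FPKM in Ad-CMV, with a median ratio of 0.84, beside ratios of 0.99 for Igfbp6 and 0.85 for Igfbp5. Without the 3 collagens the list summed to 91.9 FPKM in Ad-MAFG and 77.1 FPKM in Ad-CMV. Dcn made most of that remainder, with 54.2 FPKM in Ad-MAFG and 53.7 FPKM in Ad-CMV. The ratios were 0.01 for Dcn and -0.07 for Des, but 0.91 for Pdgfrb, 0.77 for Lrat and 0.67 for Reln. Of 4 counted cholangiocyte markers 2 were called higher, among them Krt19 (1.22), with a summed level of 48.4 FPKM in Ad-MAFG and 16.2 FPKM in Ad-CMV, and Krt7 was listed at 0. Spp1 (40.9 FPKM in Ad-MAFG and 11.5 FPKM in Ad-CMV) made most of that sum, and the rest came to 7.48 FPKM in Ad-MAFG and 4.65 FPKM in Ad-CMV. Endothelial markers gave none past 2-fold of 6 counted, with sums of 38.8 FPKM in Ad-MAFG and 44.5 FPKM in Ad-CMV, a median of -0.21 and Pecam1 at -0.32, while Clec4g was listed close to 0. Of 6 counted Kupffer cell and macrophage markers 1 was called lower, the scavenger receptor Marco (2.10 FPKM in Ad-MAFG and 13.6 FPKM in Ad-CMV, ratio -2.64), at a list median of 0.31, with Adgre1 at 0.29 and sums of 79.2 FPKM in Ad-MAFG and 70.4 FPKM in Ad-CMV. The part of these cell types in the values of the binding proteins was not tested.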

How the data were processed

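Total liver RNA was depleted of ribosomal RNA, made into strand-specific libraries and sequenced as paired reads. The authors removed adapters and ribosomal reads (Bowtie2 2.2.9), aligned to GRCm38 (mm10) with STAR 2.6.0c, and assembled and quantified transcripts with Cufflinks 2.2.1 and Cuffdiff on Ensembl annotation. They deposited FPKM, 1 value per group, in 68997 rows, 1 assembled transcript for each of as many loci. Fold change, test statistic, p and q of the authors' own comparison are also in the table and were not used. Labels and methods give 3 mice per group, and a legend of the study gives another number. The group values allow no test of their own across mice, so ratios were set against a 2-fold limit. Ratios, calls, row choice and strand blocks were tested on simulated data (Python 3.11.15, pandas 2.3.3, numpy 2.4.6). Every member was described, and of each pathway list the first gene and all called genes were named. Stat5b, Igf2r, Insr, G6pc, Foxo3, Pdk4 and markers other than the first of each list were named after their values were seen. Members and lists were chosen with earlier results of these data known. Transcript starts and promoter sequence are from RefSeq (GRCm38.p6), gene coordinates from GENCODE M21. Onecut1 was not analysed here.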

Additional observations from a re-analysis of the deposited data

How the results depend on the processing

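No paired analysis was possible because the table holds no values per mouse, and for the same reason no mouse could be left out. Over 10 alternatives 78 ratios of the 10 genes were obtained, but 37 repeat the reported value because the setting cannot move it, and 16 differ only by the amount added, which cannot turn a direction. The other 25 kept their direction, but they could hardly have turned. Centring and upper quartile scaling moved each ratio by little beside the smallest member ratio, 0.23 for Igfbp7. For rows summed or on the annotated strand, all rows of a gene with at least 0.05 FPKM already lay on the same side of 0. These values are therefore no check of direction. Igfbp2 was called lower throughout, in 5 settings with its value repeated and in 5 with values down to -1.41 and up to -1.33. The median over the members changed sign between settings, also with 1 FPKM added (0.01). No member was called higher as reported. With 0.01 FPKM added, with rows summed, with centring and with upper quartile scaling, 1 was (Igfbp6). Among all genes counted, 4.09%, 4.10%, 4.24% and 4.45% were called higher in these settings, in that order. At 1.5-fold 2 members were higher (Igfbp5 and Igfbp6) and 2 lower (Igfbp2 and Igfbp4). The shares of all genes counted at 1.5-fold were 8.82% higher and 10.4% lower. Of all protein-coding genes, 271 were called higher and 290 lower as reported. The numbers were 770 and 609 without a filter on low values, 74 and 154 at a mean of at least 5 FPKM, 88 and 182 on the annotated strand alone, and 632 and 749 at 1.5-fold, and 137 and 200 with 1 FPKM added. As shares of the genes counted, 3.32% were higher and 6.90% lower at 5 FPKM, and 3.13% higher and 6.48% lower on the annotated strand. As reported, the shares were 3.78% higher and 4.05% lower. In both settings the share called higher was thus somewhat smaller and the share called lower larger, and the cause was not tested. On the annotated strand alone Igfbp5 and Igfbp6 were below the limit of 1 FPKM and gave no value.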
